A study of Mus musculus with 4 samples.

Results

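The genes described here are 40 cell cycle genes, 16 expressed mainly in S phase and 24 expressed mainly in G2 and mitosis, out of the 32285 genes listed in the matrices. They were chosen by symbol, and all 40 were present. The data are 4 droplet single-cell RNA libraries of mouse pancreatic tumours, grown orthotopically (in the pancreas) in C57BL/6J mice from the tumour cell lines KPC-4545 and KPC-3403, with no treatment, and collected on day 13. Each line gave 1 library of the whole dissociated tumour and 1 library enriched for cancer-associated fibroblasts, sorted for cells that carried none of the surface markers CD45 (leukocytes), CD31 (endothelium), EPCAM (epithelium) and TER119 (erythroid cells). The age and number of mice behind a library are not given in the sources used here, so the p-values below do not measure the spread between mice. The comparisons ask how the share of cycling cells and their phase differ between fibroblasts, mesothelium, tumour cells of both lines and lymphocytes.

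A dividing cell copies its DNA in S phase and separates the copies in mitosis, with G1 and G2 as the gaps between. Cyclins D and E with their kinases release E2F factors from Rb-family proteins, and E2F factors switch on the replication genes, among them the Mcm helicase subunits, the sliding clamp Pcna and the enzymes of nucleotide synthesis. Mitotic genes come on later, through promoters that often carry a CCAAT box and a cell cycle homology region (CHR), which bind NF-Y and the MuvB complexes. In pancreatic tumours the malignant cells divide, while fibroblasts and the mesothelium, the thin epithelium-like lining of the abdominal cavity, also divide when activated, and mature neutrophils have left the cycle.

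For KPC-4545 the enriched library held 47207893 and the whole library 5746733, and for KPC-3403 51450719 and 13990046, unique molecular identifiers (UMIs, the counted molecules). In the same order 1510, 526, 2464 and 1089 cells were kept, with medians of 10979, 3594, 16323 and 4110 UMIs per cell. The cells were clustered without 144 listed cell cycle genes. Classes were named from marker genes as tumour-like, submesothelial-like, fibroblast-like, mesothelial-like, T-like and B-like, with smaller classes beside them. In clusters with at least 20 cells in a library, Col1a1 stood at 38.3 to 109.5 UMIs per 10000 UMIs in fibroblast-like and 0 to 8.25 in tumour-like cells, and Krt18 at 0 to 0.19 and 4.13 to 32.8. The tumour-like markers, with keratins and Epcam among them, do not separate malignant cells from normal epithelium, and malignancy was not tested. Only 3 cells of whole KPC-4545 were fibroblast-like, too few for a comparison. In the enriched KPC-4545 library 712 cells stayed unnamed, against 13 to 108 in the others. The enriched KPC-4545 and whole KPC-3403 libraries shared 137 cell barcodes, with a median of 785 UMIs in the first and 29078 in the second, against 6 to 8 in any other pair of libraries. The copy with fewer UMIs was left out, and results that change when both copies stay are given with and without them.

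Promoter windows from RefSeq (build GRCm38.p6, from 250 bases before to 50 bases after the start of the gene) were found for 35 of the 40 members (all but Ccne2, Mcm4, Gins2, Aurkb and Tpx2), and they carried different motifs in the S phase and G2/M lists. The CHR (TTTGAA or TTCGAA), the CCAAT box (CCAAT) and an E2F motif (TTTCGCGC, TTTGGCGC, TTTCCCGC or TTTGGCGG) were searched on both strands, and matches may overlap. Of 22 G2/M members with a window, 18 (81.8%) held a CHR, 19 (86.4%) a CCAAT box and 1 (4.55%) an E2F motif, and 17 (77.3%) held both CHR and CCAAT. Of 13 S phase members with a window, 2 (15.4%) held a CHR, 8 (61.5%) a CCAAT box and 6 (46.2%) an E2F motif. Among all 27025 genes with a window the shares were 21.7%, 41.1% and 2.70%, and 9.65% held CHR and CCAAT together. A second pair of lists with no gene in common with the members, 34 other mitotic genes and 24 other replication genes, were searched as well. Of 27 other mitotic genes with a window 19 (70.4%) held a CHR, 18 (66.7%) a CCAAT box and 1 (3.70%) an E2F motif. Of 20 other replication genes 3 (15%) held a CHR, 12 (60.0%) a CCAAT box and 9 (45.0%) an E2F motif, so the CCAAT shares of these lists lay closer together than those of the members. These matches are descriptions of letters in a window and no test was made of them.

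**Figure D1:**
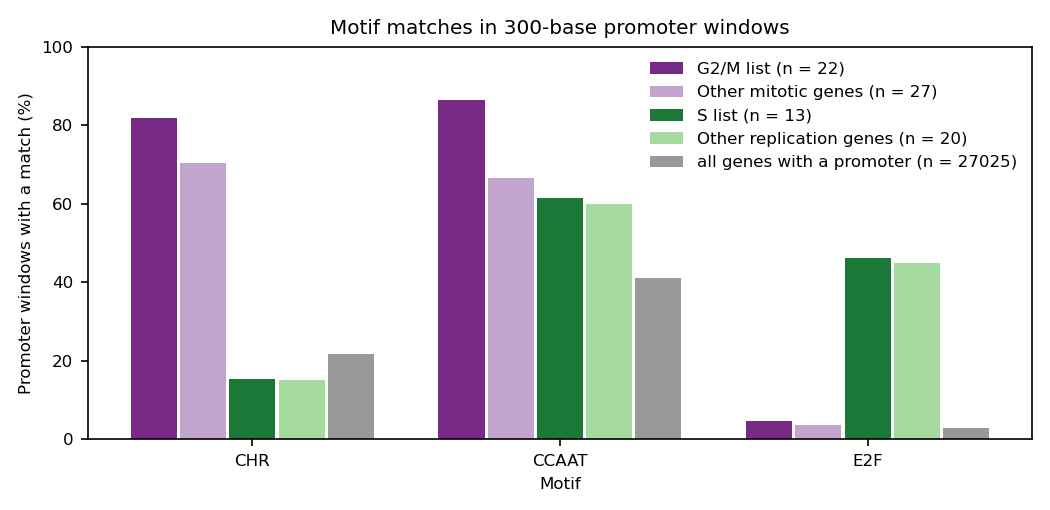
Share of promoter windows of 300 bases (vertical axis, percent) with at least 1 match to each motif (horizontal axis), for both member lists, for the other mitotic and other replication genes, and for all 27025 genes with a window. CHR matches stand at 81.8% in the G2/M list and 15.4% in the S list, and E2F matches at 4.55% and 46.2%.

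The windows of the 4 G2/M members and 3 S phase members with the highest mean level in tumour-like and fibroblast-like cells are printed in the direction of transcription, with every motif match in capitals. They are Ube2c (chr2:164769679-164769978, plus strand), Cenpa (chr5:30666636-30666935, plus strand), Birc5 (chr11:117848987-117849286, plus strand), Top2a (chr11:99024140-99024439, minus strand), Pcna (chr2:132253131-132253430, minus strand), Tk1 (chr11:117825965-117826264, minus strand) and Tyms (chr5:30073576-30073875, minus strand). Of the 4 G2/M windows only that of Birc5 held no match, and of the 3 S phase windows only that of Pcna held one, a CCAAT box. Mcm6 (chr1:128359656-128359955, minus strand) and 1 of the 2 windows of Mcm7 (chr5:138171834-138172133, minus strand) were added because they hold E2F motifs.
Ube2c: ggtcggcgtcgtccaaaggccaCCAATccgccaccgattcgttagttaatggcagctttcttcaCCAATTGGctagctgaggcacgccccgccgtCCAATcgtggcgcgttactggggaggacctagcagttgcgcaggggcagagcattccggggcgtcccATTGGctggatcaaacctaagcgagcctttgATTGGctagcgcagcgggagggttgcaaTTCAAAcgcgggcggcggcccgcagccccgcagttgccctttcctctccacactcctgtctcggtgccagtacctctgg
Cenpa: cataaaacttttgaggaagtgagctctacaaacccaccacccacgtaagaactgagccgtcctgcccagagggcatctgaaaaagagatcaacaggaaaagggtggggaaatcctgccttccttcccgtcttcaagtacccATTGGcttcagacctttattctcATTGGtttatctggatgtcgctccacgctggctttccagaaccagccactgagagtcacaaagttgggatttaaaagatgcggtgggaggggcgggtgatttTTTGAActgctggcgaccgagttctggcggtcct
Birc5: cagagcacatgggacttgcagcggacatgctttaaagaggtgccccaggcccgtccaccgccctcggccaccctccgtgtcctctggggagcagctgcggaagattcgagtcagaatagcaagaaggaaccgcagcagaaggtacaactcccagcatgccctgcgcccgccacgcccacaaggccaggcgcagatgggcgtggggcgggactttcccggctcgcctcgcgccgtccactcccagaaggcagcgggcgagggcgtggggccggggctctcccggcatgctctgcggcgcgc
Top2a: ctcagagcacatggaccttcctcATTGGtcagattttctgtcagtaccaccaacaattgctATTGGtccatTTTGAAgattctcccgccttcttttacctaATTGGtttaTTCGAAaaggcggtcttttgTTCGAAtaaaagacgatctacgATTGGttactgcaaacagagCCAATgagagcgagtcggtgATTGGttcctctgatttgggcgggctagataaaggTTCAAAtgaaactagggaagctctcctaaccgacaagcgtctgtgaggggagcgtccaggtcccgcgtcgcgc
Pcna: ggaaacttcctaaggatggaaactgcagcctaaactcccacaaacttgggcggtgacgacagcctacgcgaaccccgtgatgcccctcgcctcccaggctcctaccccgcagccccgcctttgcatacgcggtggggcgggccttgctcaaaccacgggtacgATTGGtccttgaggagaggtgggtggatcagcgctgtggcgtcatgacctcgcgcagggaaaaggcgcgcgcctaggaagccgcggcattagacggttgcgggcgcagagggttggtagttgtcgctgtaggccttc
Tk1: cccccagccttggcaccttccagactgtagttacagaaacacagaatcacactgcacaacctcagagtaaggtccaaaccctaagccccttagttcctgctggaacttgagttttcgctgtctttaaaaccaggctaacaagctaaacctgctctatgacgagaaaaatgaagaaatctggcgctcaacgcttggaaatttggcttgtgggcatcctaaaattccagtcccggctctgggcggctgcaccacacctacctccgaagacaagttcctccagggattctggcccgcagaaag
Tyms: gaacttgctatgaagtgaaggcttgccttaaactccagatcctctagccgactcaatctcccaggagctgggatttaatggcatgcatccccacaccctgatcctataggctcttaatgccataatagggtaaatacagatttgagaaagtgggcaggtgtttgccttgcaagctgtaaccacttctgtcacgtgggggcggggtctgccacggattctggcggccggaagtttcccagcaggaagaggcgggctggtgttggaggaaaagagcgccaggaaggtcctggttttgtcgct
Mcm6: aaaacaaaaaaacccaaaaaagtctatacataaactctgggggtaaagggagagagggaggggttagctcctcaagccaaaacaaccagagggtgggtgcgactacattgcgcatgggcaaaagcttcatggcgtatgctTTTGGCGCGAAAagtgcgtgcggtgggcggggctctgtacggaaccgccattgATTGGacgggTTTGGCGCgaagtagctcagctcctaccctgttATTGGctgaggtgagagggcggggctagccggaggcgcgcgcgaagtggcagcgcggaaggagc
Mcm7: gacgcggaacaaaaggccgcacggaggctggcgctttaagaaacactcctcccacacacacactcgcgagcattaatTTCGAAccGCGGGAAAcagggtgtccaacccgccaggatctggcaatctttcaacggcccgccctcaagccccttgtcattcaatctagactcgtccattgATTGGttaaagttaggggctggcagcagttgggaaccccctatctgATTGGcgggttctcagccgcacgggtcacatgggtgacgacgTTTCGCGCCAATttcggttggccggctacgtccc
The Top2a window holds 4 CHR matches and 6 CCAAT boxes, and that of Ube2c 1 CHR and 6 CCAAT boxes. In the Ube2c, Cenpa and Top2a windows a CHR lies nearer to the start of the gene than every CCAAT box, its first base at position -29, 16 and -23 from the start.

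Cells were called cycling when, after each cell had been thinned at random to 1000 UMIs, at least 2 different members of either list were detected, and the list with more UMIs gave the phase. A tie counted as G2/M when at least 2 different G2/M members were detected, and as S phase otherwise. Cells with fewer than 1000 UMIs were left out (235, 29, 54 and 107 in the order above). Tumour-like cells had a higher share of cycling cells than fibroblast-like cells in each of the 3 libraries that held enough of both. In tumour-like cells the share was 26.2% (191 of 729; exact 95% interval 23.0 to 29.6) in the enriched KPC-4545 library and 20.0% (8 of 40; 9.05 to 35.6) in the whole KPC-4545 library. It was 13.6% (93 of 682; 11.1 to 16.4) in the enriched and 29.8% (62 of 208; 23.7 to 36.5) in the whole KPC-3403 library. In fibroblast-like cells the share was 10.9% (5 of 46; 3.62 to 23.6) in the enriched KPC-4545, 7.79% (43 of 552; 5.69 to 10.3) in the enriched KPC-3403 and 4.76% (2 of 42; 0.582 to 16.2) in the whole KPC-3403 library. The sort of the enriched libraries was set to take out EPCAM-positive cells, and its part in these shares was not tested. Intervals of shares and levels cover counting error only.

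Within every library that held both classes, the tumour-like share was above the fibroblast-like share, by 15.3, 5.85 and 25.0 percentage points in the enriched KPC-4545 library and the enriched and whole KPC-3403 libraries. The mean difference was 15.4 ± 9.60 points (SD, n = 3), with a two-sided exact permutation p of 0.25, the smallest that 3 libraries allow. With both copies of shared barcodes kept, the differences were 12.5, 6.17 and 11.6 points with a mean of 10.1 and whole KPC-3403 moved from 25.0 to 11.6. Only 12 copies had been left out of whole KPC-3403, and the new clustering also changed which of its cells were named. Its tumour-like cells led by Prap1 went from 135 to 86, and its unnamed cells led by Ctrb1 from 94 to 140. The part of this renaming in the change was not tested. Without thinning, the shares rose with depth to 95.9%, 77.3%, 72.3% and 74.8% in tumour-like cells and to 49.0%, 47.1% and 53.5% in fibroblast-like cells, so only the thinned shares are compared. Of all tumour-like cells at this depth 405 of 1659 were 1 gene short of the rule in the list with more genes, and 161 met it with exactly 2 genes.

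Mesothelial-like and submesothelial-like cells were numerous in the enriched KPC-3403 library alone and have no replicate. Mesothelial-like cells (led by Upk1b, Upk3b and Lrrn4) were cycling in 16.1% (35 of 217; 11.5 to 21.7), submesothelial-like cells (led by Cxcl13, Calca and Saa3) in 10.9% (97 of 890; 8.93 to 13.1) and fibroblast-like cells in 7.79%. The interval of the mesothelial-like cells overlaps those of the tumour-like (13.6%) and submesothelial-like cells of that library and lies above that of the fibroblast-like cells, and the submesothelial-like and fibroblast-like intervals overlap. Among lymphocytes of the whole libraries, T-like cells were cycling in 8.53% (11 of 129; 4.33 to 14.7) in KPC-4545 and 7.84% (16 of 204; 4.55 to 12.4) in KPC-3403. B-like cells were cycling in 6.90% (12 of 174; 3.61 to 11.7) and 2.48% (3 of 121; 0.514 to 7.07), and NK-like cells in 0 of 27 (a floor of 3 cells is 11.1%, and the exact upper limit is 12.8%) and 5.13% (2 of 39; 0.627 to 17.3). The T-like and B-like intervals overlap in each library.

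**Figure D2:**
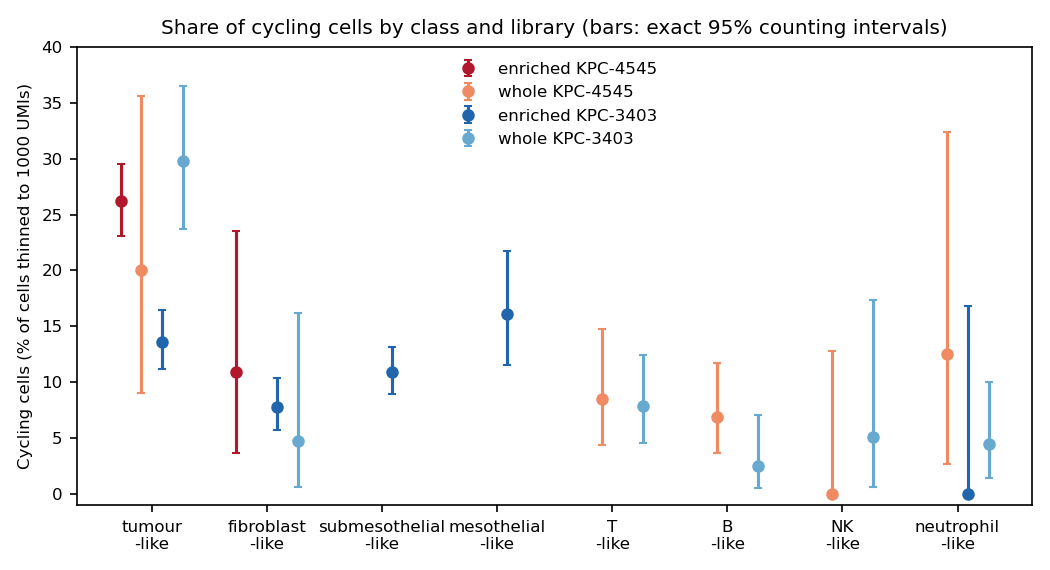
Share of cycling cells (vertical axis, percent of cells thinned to 1000 UMIs) by class (horizontal axis) and library (colour), for classes with at least 20 cells in a library, with bars for the exact 95% interval. Tumour-like points lie between 13.6% and 29.8%, fibroblast-like points between 4.76% and 10.9%, and T-like and B-like points between 2.48% and 8.53%.

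Free RNA in the droplets carried members too, so a class that should not divide was used as the background. In barcodes with at most 100 UMIs the members made up 20.9, 16.2, 12.3 and 23.4 UMIs per 10000 in the same order of libraries. The neutrophil-like cells led by Retnlg and Il1b, taken as mature, held 1.68 to 2.96 per 10000 in the 3 libraries with more than 20 of them. Over the libraries 2 of 143 (1.40%; 0.17 to 4.96) were called cycling, and their median depth of 1883 UMIs was below that of every class compared here. The intervals of all 4 tumour-like shares, and of the fibroblast-like, mesothelial-like and submesothelial-like shares of the enriched KPC-3403 library, lie above that interval, and those of the T-like, B-like, NK-like and other fibroblast-like shares overlap it. The share of free RNA in each class was not tested.

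At 1000 UMIs per cell most cycling cells of the tumour-like and stromal classes with more than 5 cycling cells were in G2/M, by a rule in which the G2/M list has 24 genes and the S list 16. The rule for ties leans to G2/M as well. Of cycling tumour-like cells 71.7% (137 of 191; 64.8 to 78.0), 75.0% (6 of 8; 34.9 to 96.8), 59.1% (55 of 93; 48.5 to 69.2) and 67.7% (42 of 62; 54.7 to 79.1) were in G2/M, in the order of libraries above. Of cycling mesothelial-like cells 82.9% (29 of 35; 66.4 to 93.4), of submesothelial-like cells 62.9% (61 of 97; 52.5 to 72.5) and of fibroblast-like cells of the same library 65.1% (28 of 43; 49.1 to 79.0) were in G2/M. The intervals at 75.0%, 59.1% and 65.1% include equal parts of both phases. The tumour-like minus fibroblast-like difference could be formed only there, and was -5.98 points (95% Newcombe interval -22.1 to 11.7), with no test. Without thinning the G2/M shares were lower and most fell below those of S phase, at 33.4%, 55.9%, 22.4% and 40.6% in tumour-like, 31.0% in mesothelial-like, 23.0% in submesothelial-like and 22.3% in fibroblast-like cells of enriched KPC-3403, so the phase split depends on the depth at which it is called. T-like cells had 6 of 11 and 6 of 16 cycling cells in G2/M at 1000 UMIs. In the B-like cells of the whole KPC-4545 library 0 of 12 cycling cells were in G2/M, and in whole KPC-3403 2 of 3.

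Summed UMIs need no rule per cell. The G2/M list made up 67.7%, 70.3%, 61.7% and 67.7% of the members' UMIs in tumour-like cells, 60.4% in mesothelial-like and 61.6% in submesothelial-like cells. In fibroblast-like cells it made up 59.7% in enriched KPC-4545, and in KPC-3403 65.6% (enriched) and 35.9% (whole). In T-like cells of whole KPC-4545 and whole KPC-3403 the G2/M list held 54.4% and 56.5%, in B-like cells 35.4% (30.4 to 40.6) and 28.8% (23.4 to 34.8), and in NK-like cells 37.8% (22.5 to 55.2) and 31.9% (21.2 to 44.2). Summed over all members, both lists held 22.0, 20.1, 13.1 and 19.9 UMIs per 10000 in tumour-like cells and 11, 7.35 and 4.81 in fibroblast-like cells. The 2 groups do not overlap, though the tumour-like cells of the enriched KPC-3403 library lie close to the highest fibroblast-like value. The sum over all members was 10.9 in mesothelial-like, 9.30 in submesothelial-like, 7.77 and 10.8 in T-like and 5.82 and 5.06 in B-like cells.

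**Figure D3:**
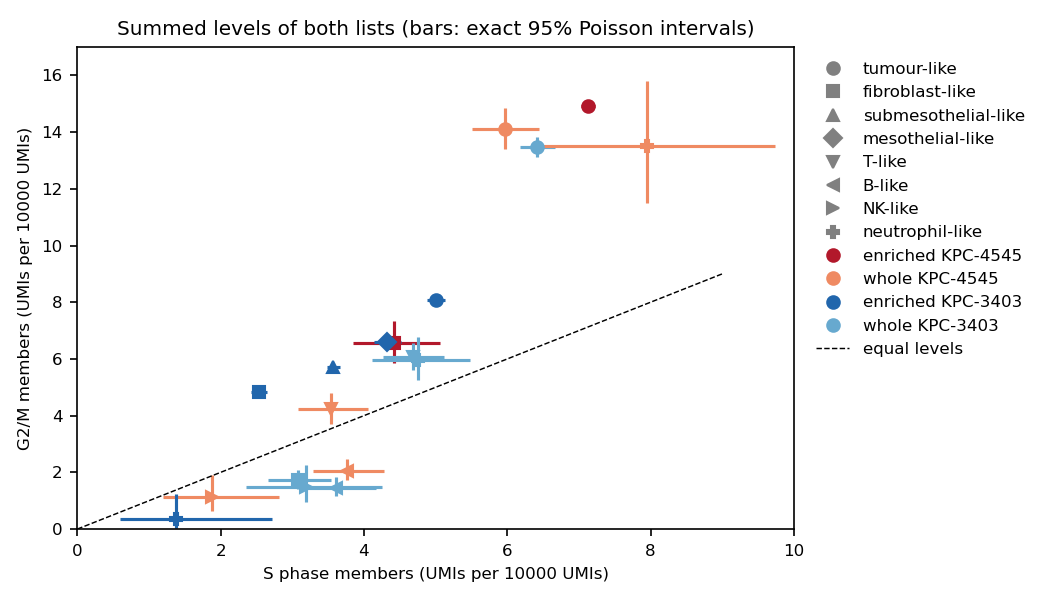
Summed level of the S phase members (horizontal axis) against that of the G2/M members (vertical axis), in UMIs per 10000 UMIs, for each class (marker) and library (colour) with at least 20 cells, with exact 95% Poisson intervals and a dashed line of equal levels. Tumour-like points stand at the upper right, between 13.1 and 22.0 for both lists together, and B-like points below the line. The neutrophil-like class is drawn whole, with a small cluster led by Ngp and Camp that holds most of its member UMIs in the whole libraries.

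In the test of single genes, 10 of the 40 members were higher in tumour-like than in fibroblast-like cells and 0 were lower (edgeR's quasi-likelihood test on UMI sums per library and class, Benjamini-Hochberg adjusted p under 0.05). Over all 11335 genes tested 9.55% were higher and 13.9% lower, so 10 of 40 is above the background share. The median log2 difference of the members was 1.07 against 0.01 for all genes, and 37 of 40 were positive. Of the 10, 6 were helicase and licensing genes and 4 were mitotic. Without the whole KPC-3403 library, which holds 43 fibroblast-like cells, 0 members passed and the median was 0.75, without the whole KPC-4545 library 6 passed, and without the enriched KPC-4545 and the enriched KPC-3403 library 7 and 15. With both copies of the shared barcodes kept, 17 passed. The whole G2/M list had 110 UMIs in the fibroblast-like cells of whole KPC-3403 and 319 in those of enriched KPC-4545, against 3854 in enriched KPC-3403. The values of single mitotic genes in the fibroblast-like cells of whole KPC-3403 and enriched KPC-4545 therefore rest on few UMIs. In bulk sums of this kind, fewer cells in a phase and less RNA per cell cannot be told apart.

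The helicase and licensing genes, which apart from Gins2 encode the Mcm helicase or load it onto origins before S phase, made up the largest group, with 6 of 9 higher. Mcm6, a helicase subunit, stood at 71.5, 59.9, 55.5 and 66.0 CPM (UMIs of the summed cells scaled to a common library size, with TMM factors) in the tumour-like cells of KPC-4545 (enriched, then whole) and KPC-3403 (enriched, then whole), an order kept below. It stood at 25.3, 26.0 and 14.5 CPM in the fibroblast-like cells of enriched KPC-4545 and of KPC-3403 (enriched, then whole). The groups did not overlap, and the log2 difference was 1.48 ± 0.44 (SE; edgeR adjusted p = 0.0116). Mcm7 stood at 39.3, 51.8, 45.3 and 56.6 CPM against 18.1, 13.5 and 16.2 (1.69 ± 0.41; edgeR adjusted p = 0.00214), again without overlap. Cdt1, which recruits the helicase to origins, stood at 29.7, 27.5, 24.3 and 27.0 against 10.8, 7.52 and 6.46 CPM (1.84 ± 0.45; edgeR adjusted p = 0.00199) and had the smallest adjusted p of the members. Mcm2 stood at 37.2, 15.4, 21.9 and 33.5 against 10.8, 9.74 and 14.5 CPM (1.27 ± 0.40; edgeR adjusted p = 0.0189), with the whole KPC-4545 tumour-like value close to the highest fibroblast-like one. Cdc6 and Mcm3 passed as well, and Mcm4, Mcm5 and Gins2 did not, with log2 differences of 0.77, 1.06 and 0.60.

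None of the other 7 S phase members passed. Pcna, the sliding clamp of DNA polymerases, stood at 83.6, 81.8, 79.2 and 115 CPM in tumour-like cells against 45.1, 44.3 and 46.8 in fibroblast-like cells (log2 difference 0.95 ± 0.43; edgeR adjusted p = 0.115); the levels do not overlap but the test was not passed. Tk1, the thymidine salvage kinase, stood at 62.8, 46.9, 51.2 and 65.5 CPM against 63.2, 27.8 and 29.1, so the enriched KPC-4545 fibroblast-like value lies within the tumour-like range (0.65 ± 0.40; edgeR adjusted p = 0.271). Tyms, the thymidylate synthase, had a log2 difference of 0.01 and Rrm1, a subunit of ribonucleotide reductase, of -0.43. The E-type cyclins, which drive entry into S phase, were the only other members below 0. Ccne1 stood at 4.79, 4.05, 3.01 and 2.75 CPM against 7.22, 5.98 and 9.69 (-0.94 ± 0.50; edgeR adjusted p = 0.191) and did not overlap. Ccne2 stood at 3.68, 4.86, 2.16 and 2.98 against 7.22, 1.81 and 4.85 CPM (-0.39 ± 0.73; edgeR adjusted p = 0.771), with overlapping groups.

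Of the 6 genes grouped as mitotic kinases 2 were higher. Aurka, which matures the spindle poles, stood at 39.2, 18.6, 17.7 and 31.2 CPM in tumour-like cells against 10.8, 8.77 and 3.23 in fibroblast-like cells (1.61 ± 0.51; edgeR adjusted p = 0.0191). Bub1b, a spindle checkpoint protein, was the other (1.62 ± 0.53; edgeR adjusted p = 0.0226). Cdk1, the kinase that starts mitosis, stood at 64.8, 36.4, 32.8 and 54.3 against 19.9, 34.0 and 11.3 CPM, with an enriched KPC-3403 fibroblast-like value above the tumour-like value of the same library (0.85 ± 0.51; edgeR adjusted p = 0.253).

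Of the cyclins and anaphase regulators, Cdc20, an activator of the anaphase-promoting complex, passed, with 58.8, 39.7, 33.1 and 45.8 CPM against 19.9, 20.5 and 0 (1.72 ± 0.53; edgeR adjusted p = 0.0171). Ube2c, the ubiquitin-conjugating enzyme of that complex, stood at 324, 219, 180 and 245 CPM against 21.7, 88.2 and 14.5 without overlap, and its log2 difference of 2.18 ± 0.88 did not pass (edgeR adjusted p = 0.0924). Ccnb2, a mitotic cyclin, stood at 82.2, 59.9, 50.8 and 66.2 against 48.8, 38.4 and 21.0 CPM (0.74 ± 0.48; edgeR adjusted p = 0.303), where the lowest tumour-like value is close to the highest fibroblast-like one.

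Of 7 spindle and cytokinesis genes 1 passed. Kif23, a motor of the central spindle, stood at 24.7, 53.4, 20.4 and 48.1 CPM against 5.42, 8.35 and 3.23 (1.85 ± 0.50; edgeR adjusted p = 0.00518). Its whole-tumour values were above its enriched values in both lines. Tpx2, which activates Aurka on the spindle, stood at 68.4, 48.6, 29.8 and 51.6 against 21.7, 22.3 and 4.85 CPM (1.22 ± 0.49; edgeR adjusted p = 0.0746). Racgap1, which acts with Kif23 in cytokinesis, stood at 56.9, 29.1, 22.7 and 34.1 against 18.1, 14.2 and 0 CPM (1.42 ± 0.59; edgeR adjusted p = 0.0872), also without overlap and short of the threshold.

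None of the 5 centromere and kinetochore genes passed in that comparison, nor did either gene of the group that holds Top2a and Mki67. Cenpa, the centromeric histone, stood at 112, 131, 60.8 and 78.8 CPM against 79.5, 82.4 and 17.8, with overlapping groups (0.58 ± 0.51; edgeR adjusted p = 0.471). Birc5, a subunit of the chromosomal passenger complex, stood at 114, 73.7, 89.6 and 119 against 32.5, 64.9 and 21.0 CPM (1.13 ± 0.48; edgeR adjusted p = 0.0897). Top2a, which untangles sister chromosomes, stood at 63.2, 114, 52.2 and 127 against 23.5, 23.9 and 27.5 CPM (1.55 ± 0.57; edgeR adjusted p = 0.0501). Its groups were far apart and its test just missed the threshold. Mki67, the coat protein of mitotic chromosomes used to stain dividing cells, stood at 58.2, 65.6, 29.3 and 67.6 CPM against 68.6, 24.9 and 11.3, so the highest of the 7 values was that of the enriched KPC-4545 fibroblast-like cells. Its log2 difference was 0.51 ± 0.60 (edgeR adjusted p = 0.618) and -0.19 without the whole KPC-3403 library.

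**Figure D4:**
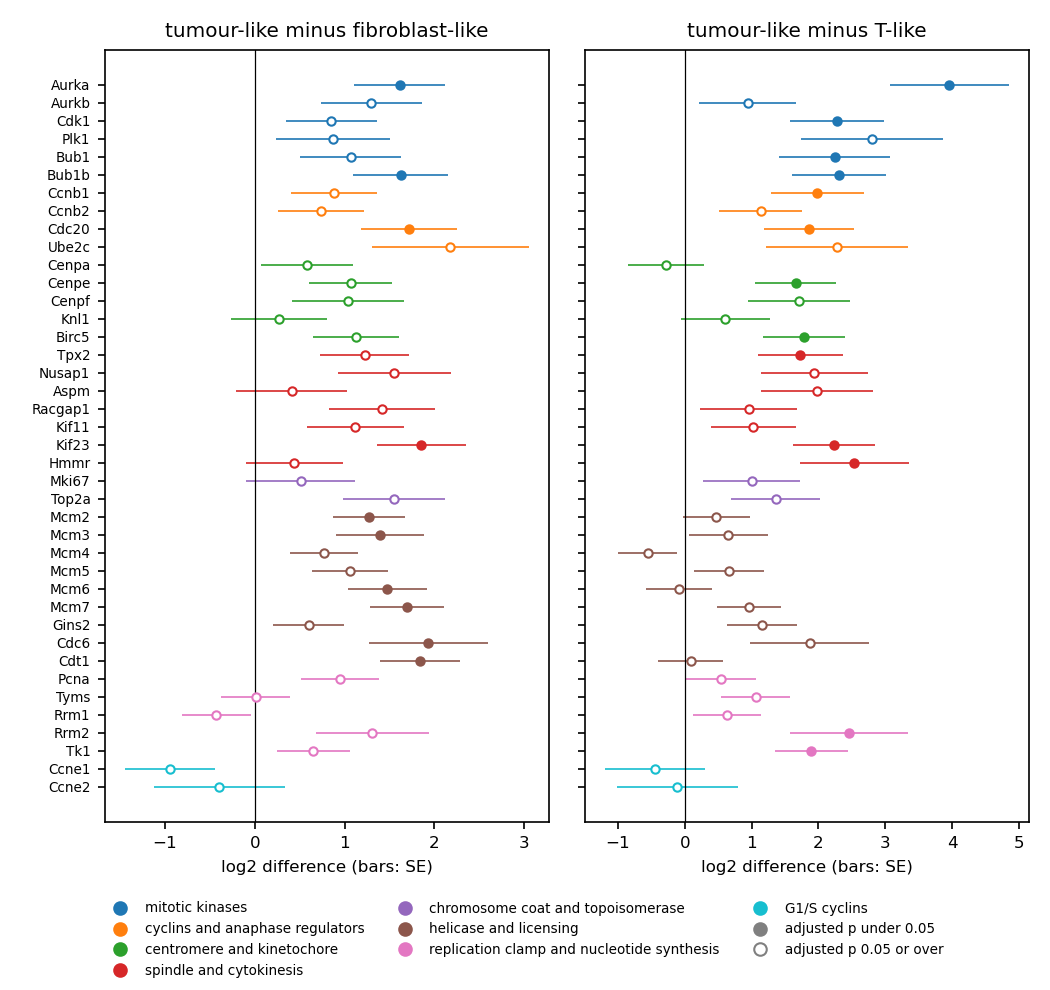
Fitted log2 difference of each of the 40 members (rows, coloured by role) for tumour-like minus fibroblast-like cells (left) and tumour-like minus T-like cells (right), with bars for the standard error and filled points for an adjusted p under 0.05. On the left 6 of the 10 filled points are helicase and licensing genes, and on the right 11 of the 13 are G2/M genes.

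Against T-like cells of the whole libraries the members that passed came mostly from the G2/M list. In tumour-like cells 13 of 40 members were higher and 0 lower, 11 of the 24 G2/M members and 2 of the 16 S phase members, with a background of 15.5% higher and 11.2% lower (edgeR). The median log2 difference was 1.25 against 0.25 for all genes, 1.82 for the G2/M list and 0.64 for the S list. This rests on both whole libraries, since T-like cells were found only there: without whole KPC-4545 0 passed and without whole KPC-3403 4. Both comparisons share the tumour-like cells, and whether the lists differ between them was not tested.

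Aurka was at the head of that list, with 18.6 (whole KPC-4545) and 31.2 (whole KPC-3403) CPM in tumour-like cells against 0 and 2.96 in T-like cells, where it had 3 UMIs in all. The ratio of the pooled counts was 16.1 (95% counting interval 5.42 to 79.0; edgeR adjusted p = 0.000863). Kif23 stood at 53.4 and 48.1 CPM against 8.28 and 14.8 (log2 difference 2.23 ± 0.61; edgeR adjusted p = 0.0056). Bub1b stood at 21.9 and 23.1 against 6.62 and 2.96 CPM (2.31 ± 0.71; edgeR adjusted p = 0.0135). Tk1, 1 of the 2 S phase members to pass, stood at 46.9 and 65.5 against 16.6 and 17.8 CPM (1.89 ± 0.55; edgeR adjusted p = 0.0088), and Rrm2 was the other (2.46 ± 0.89; edgeR adjusted p = 0.0454). Mcm6 by contrast stood at 59.9 and 66.0 against 66.2 and 81.0 CPM, and Cenpa at 131 and 78.8 against 123 and 116 (log2 differences of -0.08 and -0.28). Both were as high in T-like as in tumour-like cells of the whole libraries or higher, except Cenpa in whole KPC-4545.

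Between T-like and B-like cells 1 member, Ccnb2, passed (background 3.67% higher and 2.99% lower; edgeR). It had 50 UMIs in T-like cells, at 43.1 and 23.7 CPM in whole KPC-4545 and whole KPC-3403, against 1 UMI in B-like cells, at 1.75 and 0 CPM, a pooled ratio of 35.3 (6.05 to 1421; edgeR adjusted p = 0.00856). No member passed without either whole library, and Ccnb2 was not called when cells were clustered with cell cycle genes. Ube2c, with 120 UMIs against 3, had a pooled ratio of 28.2 (9.43 to 139) and an edgeR adjusted p of 0.142. Cenpf, a kinetochore protein, had 37 UMIs in T-like and 0 in B-like cells, at least 8.70-fold higher against a floor of 3 UMIs over the group, with an edgeR adjusted p of 0.0582. Racgap1 had 32 UMIs against 1 (22.6; 3.77 to 920; edgeR adjusted p = 0.124), and Cenpe 19 against 2 (6.70; 1.62 to 59.4; edgeR adjusted p = 0.18). The median log2 difference was 0.77, or 0.71 with the 3 members at 0 UMIs in B-like cells set to their bounds, 1.35 for the G2/M list and 0.10 for the S list.

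Several mitotic genes were near 0 in B-like cells, while no S phase member passed in either direction, with log2 differences from -1.30 to 2.35. Pcna stood at 119 and 102 CPM in B-like cells of whole KPC-4545 and whole KPC-3403 against 54.7 and 107 in T-like cells. Cdt1 stood at 52.5 and 66.7 against 23.2 and 26.7, higher in B-like cells in both libraries, and did not pass (-1.30 ± 0.53; edgeR adjusted p = 0.187). Mki67 stood at 12.2 and 6.67 CPM in B-like and 13.2 and 57.3 in T-like cells. As a share of UMIs it stood at 0.115 and 0.0584 per 10000 in B-like cells, against 1.11 and 1.24 in the free RNA of those libraries. Other mitotic members were plainly present in B-like cells, such as Cenpa at 75.2 and 66.7 CPM and Top2a at 33.2 and 26.7 CPM. No G2/M member passed as higher in B-like cells, and 8 of 40 members had an unadjusted edgeR p under 0.05. The share of all genes under that unadjusted threshold was not counted, here or in the comparisons below.

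Between the lines, tumour-like cells of KPC-4545 and KPC-3403 differed in no member by the test (0 of 40, background 0.164% higher and 0.172% lower of 12177 genes; edgeR, with 1 residual degree of freedom; 0 by DESeq2 and 5 at an unadjusted p under 0.05). The direction leaned to KPC-4545, with 33 of 40 members positive and a median of 0.29, but without the enriched KPC-3403 library 20 were positive and the median was -0.01. The clusters led by Crabp1 and Pdgfrl held 374 and 354 cells of enriched KPC-4545, but 13 and 4 of the 44 tumour-like cells of whole KPC-4545. Another 20 of the 44 were in a cluster led by Prap1, of which whole KPC-3403 held 135 cells. Enriched KPC-3403 held 14 and 35 cells of the Crabp1 and Pdgfrl clusters. The part of this make-up in the comparison of the lines was not tested. Hmmr, a spindle protein, stood at 26.7 and 36.4 CPM in KPC-4545 (enriched, whole) against 11 and 17.6 in KPC-3403 (1.22 ± 0.31; edgeR adjusted p = 0.186). Cenpa stood at 112 and 131 against 60.8 and 78.8 (0.86 ± 0.23; edgeR adjusted p = 0.194), Cenpe at 46.4 and 42.1 against 14.7 and 26.8 (1.23 ± 0.36; edgeR adjusted p = 0.215), and Tyms at 84.3 and 45.3 against 37.6 and 30.5 (0.94 ± 0.29; edgeR adjusted p = 0.224). In each of these both KPC-4545 values were above both KPC-3403 values, and none passed.

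Between the preparations 0 of 40 members passed in tumour-like cells (background 0.00821% higher and 0.0246% lower; edgeR with the line as a term; 0 by DESeq2 and 6 at an unadjusted p under 0.05). The 6 with an unadjusted p under 0.05 were G2/M members. Top2a stood at 63.2 and 52.2 CPM in the enriched against 114 and 127 in the whole libraries of KPC-4545 and KPC-3403 (-1.13 ± 0.25; edgeR adjusted p = 0.28). Kif23 (-1.24 ± 0.28; edgeR adjusted p = 0.302), Aspm (-1.42 ± 0.35; edgeR adjusted p = 0.328) and Kif11 (-1.13 ± 0.34; edgeR adjusted p = 0.389) were the next. For Kif23 both enriched values lay below both whole values. The median over the members was -0.07, -0.24 with both copies of the shared barcodes kept, and 0.16 without the enriched KPC-3403 library.

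The tumour-like and fibroblast-like classes were made of clusters with very different shares of cycling cells. The 144 listed cell cycle genes took no part in the clustering. Cycle genes outside that list, such as Pclaf and Cep55, were not left out, and their part in these splits was not tested. With finer clustering (Leiden resolution 2) and the same genes left out, 57 cells of enriched KPC-4545 formed a cluster with Ect2, Mki67 and Cep55 among its leading genes. In the enriched KPC-4545 library, tumour-like cells led by Crabp1, Krt6a and Aqp5 were cycling in 44.7% (165 of 369; 39.6 to 49.9), with 30.9 member UMIs per 10000. Those led by Pdgfrl and Ogn were cycling in 7.06% (25 of 354; 4.62 to 10.2), with 5.92 per 10000. In the first cluster 123 of 165 cycling cells were in G2/M and in the second 13 of 25. Ccnd1, the D-type cyclin that drives cells out of G1, was at 8.48 UMIs per 10000 in the first and 2.11 in the second, and Cdkn2a, which encodes the p16 and p19 brakes, at 11.6 and 18.3.

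The KPC-3403 tumour-like cells were split in a like manner. Cells led by the trefoil genes Tff2 and Tff1 were cycling in 29.1% (67 of 230; 23.3 to 35.5) in the enriched and 57.1% (24 of 42; 41.0 to 72.3) in the whole library. Cells led by Bmp2, Onecut2 and Ero1l were cycling in 3.86% (14 of 363; 2.12 to 6.39) and 9.09% (3 of 33; 1.92 to 24.3), with intervals that overlap that of the mature neutrophil-like cells, and 12 of the 14 and 3 of the 3 cycling cells were in S phase. Mki67 was at 0.54 and 0.95 UMIs per 10000 in the first and 0.02 and 0.07 in the second, and the brake Cdkn1a at 0.48 and 0.35 against 1.41 and 1.36. Cells led by Prap1 and Reg3g, which express Epcam, were cycling in 5.00% (2 of 40; 0.611 to 16.9) of the enriched and 26.3% (35 of 133; 19.1 to 34.6) of the whole KPC-3403 library. These 35 were among the 62 cycling tumour-like cells of whole KPC-3403. Other leading genes of this cluster were Lypd8, Phgr1, Pigr, Reg1 and Spink4, and whether its cells are malignant was not tested.

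The clusters were not shared out evenly between the KPC-3403 libraries. Of the tumour-like cells of the enriched KPC-3403 library 375 of 698 were of the Bmp2 cluster and 230 of the Tff2 cluster, while of the whole KPC-3403 library 135 of 214 were of the Prap1 cluster. The sort was set to remove EPCAM-positive cells from the enriched libraries. Enriched KPC-3403 still held 44 cells of the Prap1 cluster, which has Epcam among its leading genes. Neither the part of the sort nor that of the cluster make-up in the difference between 13.6% and 29.8% was tested. Within the Tff2 cluster the share was 29.1% in the enriched and 57.1% in the whole library, and the intervals did not overlap.

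Fibroblast-like cells were split too. Contractile cells led by Tagln and Acta2 were cycling in 14.5% (30 of 207; 10.0 to 20.0) of the enriched KPC-3403 library, and those led by Sfrp4, Dpt and Pi16 in 4.33% (13 of 300; 2.33 to 7.30). Of 45 cells led by Mmp3 and Ccl19 none was cycling (a floor of 3 cells is 6.67%, and the exact upper limit is 7.87%). The contractile cells held 11 member UMIs per 10000 in that library, the Dpt and Pi16 cells 4.19 and the Mmp3 and Ccl19 cells 1.55, the last at the level of mature neutrophil-like cells. In the whole KPC-3403 library 1 of 22 contractile cells was cycling (4.55%; 0.115 to 22.8), and there the members held 5.78 per 10000.

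**Figure D5:**
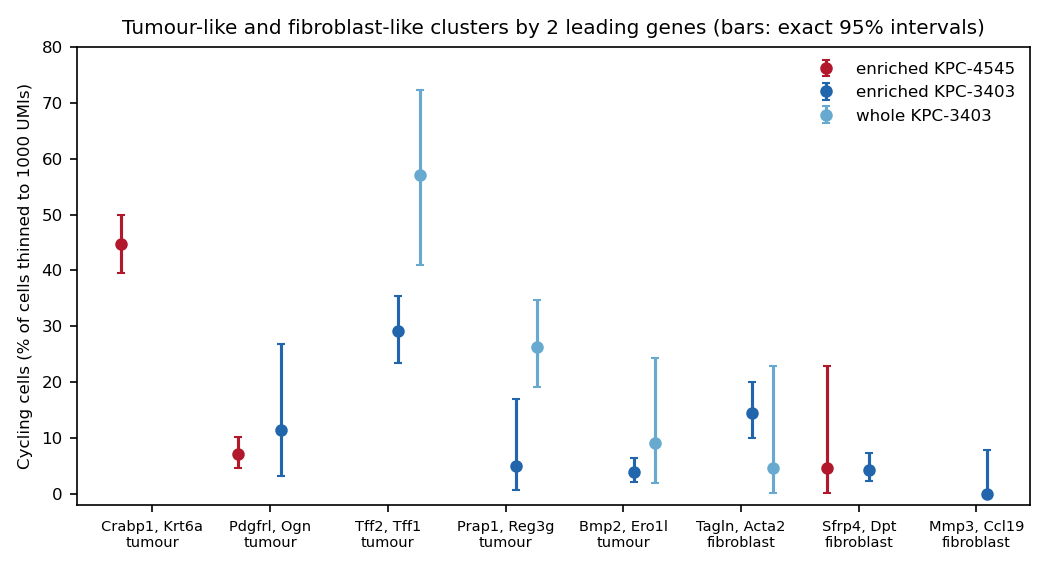
Share of cycling cells (vertical axis, percent of cells thinned to 1000 UMIs) in the tumour-like and fibroblast-like clusters, named by 2 leading genes each (horizontal axis), for libraries with at least 20 such cells, with exact 95% intervals. In the enriched KPC-4545 library the Crabp1 cluster stands at 44.7% and the Pdgfrl cluster at 7.06%, and in the enriched KPC-3403 library the Tagln cluster stands at 14.5% and the Mmp3 cluster at 0.

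Cycling cells held more RNA than the other cells of their class, although the call was made at a fixed number of UMIs. In tumour-like cells the median was 52496 UMIs in cycling against 30777 in other cells of enriched KPC-4545 (1.71-fold), 30138 against 15837 in enriched KPC-3403 (1.90-fold) and 27500 against 14286 in whole KPC-3403 (1.93-fold), and 22629 against 21132 among the 8 cycling cells of whole KPC-4545 (1.07-fold). In fibroblast-like cells of enriched KPC-3403 it was 24583 against 12446 (1.98-fold), in mesothelial-like cells 28856 against 21458 (1.34-fold) and in T-like cells 5663 against 3792 and 5163 against 4204 (1.49-fold and 1.23-fold). The erythroid-like cells of enriched KPC-3403, nearly all of them cycling, had a ratio of 0.727. The classes pool clusters of different depth. In enriched KPC-4545 the Crabp1 cluster had a median of 48049 UMIs and the Pdgfrl cluster 26465. In enriched KPC-3403 the Tff2 and Bmp2 clusters had 22635 and 12667, and the Tagln and Sfrp4 clusters 17443 and 11725. In each pair the deeper cluster also had the larger cycling share. Doublets were removed by score, and the parts of cluster make-up and of remaining doublets in these ratios were not tested.

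In the enriched KPC-3403 library the summed level of the members in mesothelial-like and submesothelial-like cells lay between those of its fibroblast-like and tumour-like cells, and single members did not all follow that order. Cdk1 stood at 44.7 and 47.6 CPM in mesothelial-like and submesothelial-like cells, above 34.0 in fibroblast-like and 32.8 in tumour-like cells of that library. Ube2c stood at 104 and 110 CPM, between 88.2 in fibroblast-like and 180 in tumour-like cells. Mcm6 stood at 42.7 and 40.2, between 26.0 and 55.5. Tyms at 77.4 and 64.6 CPM was above both, at 40.2 in fibroblast-like and 37.6 in tumour-like cells. Ccnb2 was at 66.9 CPM in mesothelial-like and 37.9 in submesothelial-like cells. With 1 library there is no test of these differences.

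Single genes that act upstream of the members differed by more than any member did. Of 8 G1 cyclins and kinases 3 were higher in tumour-like than in fibroblast-like cells and 0 lower, with 9.55% of all genes higher and 13.9% lower. Ccnd1 stood at 572, 280, 203 and 244 CPM in tumour-like against 19.9, 8.21 and 1.62 in fibroblast-like cells (5.00 ± 0.54; edgeR adjusted p = 1.35e-08), followed by the kinase Cdk6 (1.45 ± 0.50; edgeR adjusted p = 0.0326) and Ccna2, the S phase and G2 cyclin (1.40 ± 0.51; edgeR adjusted p = 0.047). Of 12 brakes 2 were higher and 4 lower. Cdkn2a (1287, 644, 855 and 571 against 10.8, 34.9 and 8.08 CPM; 5.46 ± 0.92; edgeR adjusted p = 0.000293) and its neighbour Cdkn2b (2.46 ± 0.45; edgeR adjusted p = 8.26e-05) were higher. Cdkn1c, which encodes p57, fell by 5.67 ± 0.72 on the log2 scale (2.29, 3.24, 0.463 and 0 against 59.6, 66.5 and 24.2 CPM; edgeR adjusted p = 3.13e-06), with Gas1, Cdkn1a and Ccng1 (-1.97, -1.5 and -1.31) lower as well.

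Of the other lists, 8 of 23 other replication genes tested were higher in tumour-like than in fibroblast-like cells, led by Cdca7 (3.06 ± 0.57; edgeR adjusted p = 9.06e-05), Hells (2.0 ± 0.44; edgeR adjusted p = 0.000672) and Chaf1b (1.72 ± 0.52; edgeR adjusted p = 0.0134). Cdca7 and Hells form a chromatin remodeller and Chaf1b loads histones behind the fork. Of 32 other mitotic genes 5 were higher, led by Ect2, Kif20b and Anln (1.98, 1.83 and 1.29), which act in cytokinesis. Of 12 E2F and pocket protein genes tested 1 was higher, E2f8 (2.10 ± 0.63; edgeR adjusted p = 0.0139), and of 12 chromatin and tubulin genes 1, Hmgb2 (1.73 ± 0.43; edgeR adjusted p = 0.00267). None of these 4 lists had a lower gene. With 9.55% of all genes higher, 1 of 12 is no more than the background share.

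Against T-like cells 13 of 32 other mitotic genes were higher in tumour-like cells and 0 lower (edgeR; 15.5% of all genes were higher and 11.2% lower). Of 23 other replication genes 3 were higher and 0 lower, a share below that of all genes, and the difference between the lists was not tested. Anln (3.98 ± 0.71; edgeR adjusted p = 5.7e-05), Kif20a (86 UMIs against 0, at least 8.72-fold higher) and Ect2 (3.42 ± 0.79; edgeR adjusted p = 0.00122) led the first, and Orc6 (1.91 ± 0.54; edgeR adjusted p = 0.00703), Uhrf1 (2.41) and Cdca7 (1.81) were the second. Of the G1 genes 2 of 8 were higher, Ccnd1 with 1411 UMIs against 1, a pooled ratio of 429 (76.9 to 16958), among them. Of 12 E2F and pocket protein genes tested 2 were higher in tumour-like cells and 2 lower, and of 12 brakes 3 were higher and 1 lower. The lower E2F and pocket protein genes were Rbl2, the pocket protein p130 of resting cells, and Lin54 (-2.40 ± 0.51; edgeR adjusted p = 0.000411; and -1.77). The lower brake was the antiproliferative gene Btg1 (-2.32 ± 0.49; edgeR adjusted p = 0.000402), while the brake Cdkn2b had 330 UMIs in tumour-like against 2 in T-like cells. Of the 12 chromatin and tubulin genes Tubb4b was higher (1.5) and Lmnb1 lower (-1.75). Between T-like and B-like cells 3 genes of these lists passed: Myc, lower in T-like cells (-2.60 ± 0.65; edgeR adjusted p = 0.00894), and Cdkn1a and Cdk6, higher (2.58 and 2.66). That was 1 higher and 1 lower of 8 G1 genes and 1 higher of 12 brakes. It was 0 of 12 E2F and pocket protein, 23 other replication, 32 other mitotic and 12 chromatin and tubulin genes. Over all genes 3.67% were higher and 2.99% lower. Between the lines and between the preparations no gene of these lists passed.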

How the data were processed

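The 4 libraries were made with 10x 5′ chemistry. The deposited files hold raw UMI counts per gene and barcode, unfiltered, from Cell Ranger 6.1.1 on mm10 per the submitters' processing notes, while the file headers name Cell Ranger 4. Barcodes were kept with at least 500 UMIs, at least 250 genes, at most 20% mitochondrial UMIs and a profile unlike that of free RNA (barcodes of at most 100 UMIs). Doublets were removed by Scrublet score at a rate of 0.8% per 1000 cells, and of barcodes shared by libraries the smaller copy was left out. Clustering (scanpy 1.11.5, Leiden resolution 1, 2000 variable genes) left out 144 cell cycle genes. Clusters were named from marker lists, so classes are rebuilt and may differ from the study's own.

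UMIs were summed per library and class of at least 20 cells, which gave 25 sums with 11 residual degrees of freedom. The residual spread of the class fits is what the library and class terms leave, pooled over all classes. With only the 2 classes fitted, tumour-like against fibroblast-like left 2 residual degrees of freedom and tumour-like against T-like left 1. They were tested with edgeR 4.0.16 (TMM, quasi-likelihood, library and class as terms; line and preparation for the 4 tumour-like sums, with 1 residual degree of freedom), with Benjamini-Hochberg adjustment over all genes and a threshold of 0.05. The edgeR fits of the classes and of the lines were also run on simulated sums with known changes. Those sums did not cover the cell calls, clustering, naming or the cycling rule. DESeq2 1.42.0, another scaling, other filters, other cell calls and leaving out each library were alternatives. Values are named for the 2 members of each role with the highest mean level, up to 4 more per comparison with the smallest adjusted p, and up to 3 of each other list. The members and lists were chosen with earlier results of these data known. Replicate numbers follow the tumour line, which the enriched and whole libraries share, and the labels do not say whether they came from the same animals.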

Additional observations from a re-analysis of the deposited data

Results flagged for a closer look

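Some cells outside the classes compared held members above the level of the mature neutrophil-like cells, which had a cycling share of 1.40% (up to 4.96) and 1.89 member UMIs per 10000 (up to 2.39). The largest was a set of unnamed cells of the enriched KPC-4545 library led by Neat1, of which 28.7% (122 of 425) were cycling, with Mki67 at 4.53 UMIs per 10000. These cells held the nuclear RNA Malat1 at 675 UMIs per 10000, against 35.8 and 63.4 in the named tumour-like clusters of that library, mt-Atp8 was among their leading genes, and free RNA of the library held Mki67 at 2.37 per 10000. The part of RNA quality and free RNA in their cycling share was not tested. A second unnamed set of that library, with a median of 667 UMIs, had 56.9% (37 of 65) cycling among the few cells deep enough. In the whole KPC-3403 library unnamed cells led by the digestive enzyme genes Ctrb1 and Clps had 35.7% (20 of 56). Erythroid-like cells led by Car1 and Car2 were cycling in 92.5% (37 of 40) of the enriched and 55.8% (29 of 52) of the whole KPC-3403 library, with members at 52.8 and 89.8 UMIs per 10000. Macrophage-like cells of whole KPC-3403, whose leading genes include the granule genes Prtn3, Elane and Mpo of immature myeloid cells, had 15.6% (7 of 45).

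Barcodes left out for over 20% mitochondrial UMIs held members at 15.1, 4.37, 8.66 and 10.5 UMIs per 10000 in KPC-4545 (enriched, then whole) and KPC-3403 (enriched, then whole). The cycling share of tumour-like cells moved in opposite directions between preparations, by 6.20 points (enriched minus whole) in KPC-4545 and -16.2 points in KPC-3403. The difference between the lines and the part of the cluster make-up in it were not tested.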

How the results depend on the processing

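Of the 10 members higher in tumour-like than in fibroblast-like cells, all 10 were called again with RLE scaling, with no filter on low counts and with DESeq2, 7 with only the 2 classes fitted and 5 when cells were clustered with cell cycle genes (7 members called in all). In that last clustering the 328 cells led by Tagln and Acta2 stayed unnamed. Whole KPC-3403 then held too few fibroblast-like cells, so the comparison rested on the enriched libraries. The count was 16 with no filter on low counts, 17 with barcodes of 2 libraries kept (chosen after seeing the data), and 0 to 15 when each library was left out. The difference in Mki67 ran from -0.19 (without the whole KPC-3403 library) to 1.013 when each library was left out. Against T-like cells the count was 23 with only the 2 classes and 0 to 16 when each library was left out. Between T-like and B-like cells it was 4 with no filter, 4 with DESeq2 (1 of them lower), 6 with only the 2 classes (1 of them lower, 15 members tested), 2 when cells were clustered with cell cycle genes, where Ccnb2 was no longer called, and 0 to 3 when each library was left out. With no filter 2 members passed between the lines and 1 between the preparations. The main fit of the preparations has the line, and so the replicate number, as a block, and with no replicate block 0 members passed as well. With 1 library left out of the line or preparation fit, the other term was dropped. The cause of these changes was not tested.

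The mean difference in cycling share between tumour-like and fibroblast-like cells kept its direction, from 8.10 points (at least 3 members) to 31.1 (no thinning), and from 10.6 to 20.2 when each library was left out. The difference in G2/M share in enriched KPC-3403 ran from -11.4 points (at least 3 members) to 1.68 (stricter cell filter). Without thinning 3 libraries could be used, with 1.38 points in enriched KPC-4545, 0.0278 in enriched KPC-3403, 27.6 in whole KPC-3403 and a mean of 9.66. DESeq2 moved the median of all genes between tumour-like and fibroblast-like cells from 0.01 to -0.15. Depth limits the lymphocytes, where T-like or B-like cells held 0 to 3 UMIs of several mitotic members, and the enriched KPC-4545 library, where 235 of 1510 cells had fewer than 1000 UMIs.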
